A study of Mus musculus with 2 samples.

Results

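The genes described here are 7 transcription factor genes of retinal ganglion cells, namely *Pou4f1*, *Pou4f2* and *Pou4f3* of the POU4 (BRN3) family, the LIM-homeodomain genes *Isl1* and *Isl2*, and *Ebf1* and *Ebf3* of the early B-cell factor family. They were chosen by symbol and not by their values, and all 7 were found among the 31053 genes of the count tables. Their UMIs (unique molecular identifiers, 1 for each RNA molecule counted) were followed from neurogenic progenitors to early and late ganglion cells and to the other cells of the mouse eyecup. Eyecups holding retina, lens and blood were taken at E13.5, an embryonic stage at which ganglion cells are being made, from 1 control embryo with the genotype Six3+/-;Six6+/- and from 1 littermate with the genotype Six3F/F;Six6-/-;a-Cre (hereafter DKO). The control thus carried 1 null allele of each gene. In the DKO embryo *Six6* was deleted in the germline, whereas *Six3* was deleted by a Cre that acts in the peripheral retina, so that central retinal cells kept *Six3*. The DKO embryo was picked for GFP-positive rosettes in its retinas and the control for the absence of GFP. Each genotype had 1 library, so no test between the genotypes was made. All intervals are 95% intervals that cover counting error only, and they hold neither the variation between embryos nor that between dissections.

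Ganglion cells are the first neurons that retinal progenitors make, and their axons form the optic nerve. In this lineage the basic helix-loop-helix factor Atoh7 makes progenitors competent for the ganglion cell fate. Pou4f2 and Isl1 act downstream of it and together switch on many genes of ganglion cell differentiation, while Ebf1 and Ebf3 are found in these cells as they mature. Pou4f1 and Pou4f3 come on after Pou4f2, and Isl2 marks a subset of ganglion cells. Six3 and Six6 are homeobox factors of the developing eye.

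The promoters of 3 members are shown here. Those of *Pou4f2* and *Isl1* were chosen because both RNAs were over 2-fold lower in DKO early ganglion-like cells of the integrated clustering, and that of *Pou4f1* because it is the paralog of *Pou4f2* and its interval spanned 0 in that class. When cells were grouped by late markers instead, *Pou4f1* was lower in DKO cells in 1 of 6 ranges. Each sequence is the 300 bases from 250 before to 50 after the gene's start in RefSeq (GRCm38.p6), read 5′ to 3′ on the gene's strand, and capitals mark the E-box word CAGCTG, which basic helix-loop-helix factors can bind. The *Pou4f2* sequence lies at chr8:78436598-78436897 on the minus strand, that of *Isl1* at chr13:116309639-116309938 on the minus strand and that of *Pou4f1* at chr14:104467950-104468249 on the minus strand.
Pou4f2: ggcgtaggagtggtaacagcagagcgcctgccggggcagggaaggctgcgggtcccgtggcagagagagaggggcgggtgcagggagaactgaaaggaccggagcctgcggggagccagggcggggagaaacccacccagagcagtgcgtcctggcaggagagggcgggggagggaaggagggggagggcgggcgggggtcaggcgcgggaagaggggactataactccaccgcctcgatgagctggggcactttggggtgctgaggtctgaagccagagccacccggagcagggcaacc
Isl1: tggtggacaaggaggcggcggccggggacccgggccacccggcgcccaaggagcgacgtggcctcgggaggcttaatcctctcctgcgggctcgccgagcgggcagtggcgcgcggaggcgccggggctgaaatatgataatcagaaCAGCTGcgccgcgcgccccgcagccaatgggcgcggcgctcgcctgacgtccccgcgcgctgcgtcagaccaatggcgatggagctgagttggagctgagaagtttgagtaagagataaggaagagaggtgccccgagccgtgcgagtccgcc
Pou4f1: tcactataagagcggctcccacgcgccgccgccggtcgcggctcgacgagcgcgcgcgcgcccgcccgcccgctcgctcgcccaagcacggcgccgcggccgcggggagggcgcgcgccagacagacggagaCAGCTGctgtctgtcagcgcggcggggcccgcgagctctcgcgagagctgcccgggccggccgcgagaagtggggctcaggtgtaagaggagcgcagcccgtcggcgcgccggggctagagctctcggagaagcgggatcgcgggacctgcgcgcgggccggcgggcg

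The *Isl1* and *Pou4f1* promoters each held CAGCTG once, and that of *Pou4f2* did not hold it in this window. On either strand this word was present in 16.3% of the 32851 promoters of this length. The other words searched on both strands were TAATTA (present in 5.29% of all promoters), TGATAC or its complement GTATCA (5.46%), CATTAG or its complement CTAATG (7.36%), and an EBF-type palindrome of TCCC and GGGA with 2 bases between (0.904%). None of them was found in these 3 sequences. G and C made up 69.7% of the *Pou4f2* sequence, 69.0% of that of *Isl1* and 78.3% of that of *Pou4f1*, against a median of 52.7% over all promoters. RefSeq promoters were found for 6 of the 7 members.

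The control library held 10315 cells with 85589515 UMIs and the DKO library 12672 cells with 85173276 UMIs. After the study's limits on genes and mitochondrial RNA, 9822 control cells with a median of 7620 UMIs and 12146 DKO cells with a median of 5879 UMIs were kept, so DKO cells were shallower. The libraries shared 22 cell barcodes. Over all cells *Six6* was at 246 UMIs per 1000000 UMIs (CPM) in the control and 41.7 CPM in the DKO library, and *Six3* was at 302 and 316 CPM. These levels check the labels in part, because 3' tags need not fall in the deleted part of a gene and because *Six3* was deleted in some cells only. The counts list no Cre gene, so DKO cells that lost *Six3* and DKO cells that kept it were not separated by Cre.

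Clusters were named from marker lists after the members had been left out of the clustering. Neurogenic-like cells carried the progenitor genes *Hes6*, *Dll1* and *Gadd45a* and were divided by *Mki67* and *Top2a*, genes of dividing cells, whose summed level was 1709 and 1889 CPM (control and DKO) in the cycling cluster and 77.7 and 53.8 CPM in the other. There were 630 control and 451 DKO cycling neurogenic-like cells and 770 and 1252 non-cycling ones. Early ganglion-like cells, 333 in the control and 781 in the DKO library, carried neuronal genes such as *Dcx* and *Nhlh1* together with neurogenic ones. This class was not alike in both libraries. Genes that lead a DKO-only cluster described below were at 2.98 and 49.0 CPM (*Lhx9*), 0.43 and 26.3 CPM (*Rspo3*) and 0 and 17.2 CPM (*Eomes*) in it, whereas *Tbr1* was at 0.85 and 1.06 CPM. Late ganglion-like cells, 656 and 1341, carried the axon genes *Nefm*, *Sncg* and *Gap43*. Of the cells kept, 10.1% were ganglion-like in the control and 17.5% in the DKO library. These shares also rest on the other cells kept, of which red blood-like cells made up 10.9% and 4.45% and naive-like cells 39.3% and 23.3%. They rest on the clustering as well. Merged without integration, the libraries had 503 control and 317 DKO early and 356 and 1067 late ganglion-like cells.

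Over the whole control library 67.5% of the *Pou4f1* UMIs, 48.4% of the *Isl1* UMIs, 63.0% of the *Ebf1* UMIs and 62.1% of the *Ebf3* UMIs lay in late ganglion-like cells. *Pou4f2* was spread differently, with 30.5% of its control UMIs in early ganglion-like, 28.7% in late ganglion-like and 26.9% in non-cycling neurogenic-like cells. In the DKO library 48.8% of the *Pou4f2* UMIs lay in late ganglion-like cells and 19.4% in early ones. *Pou4f3* and *Isl2* were rare, with 21 and 44 UMIs in the whole control library and 142 and 116 UMIs in the DKO library. A cluster in which 86.1% of the cells were called doublets was left unnamed and held 8.0% of the control and 7.6% of the DKO *Pou4f1* UMIs. Levels are compared within a gene only, since capture of the 3' ends differs between genes.

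*Pou4f2* encodes the POU4 factor that acts first in ganglion cell differentiation, and the gene lies at chr8:78433010-78436645 (mm10). In control cells its level was 30.9 CPM in cycling neurogenic-like, 203 CPM in non-cycling neurogenic-like, 469 CPM in early ganglion-like and 172 CPM in late ganglion-like cells. In DKO cells the same classes had 19.4, 82.5, 109 and 128 CPM. The control level therefore peaked in early ganglion-like cells, and no 2 of the 4 control classes had overlapping intervals. The DKO level had no such peak, and the early (100 to 119 CPM) and late (121 to 135 CPM) classes lay close together.

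The log2 ratio of DKO over control for *Pou4f2* was -0.67 (-1.11 to -0.25) in cycling neurogenic-like cells and -1.30 (-1.46 to -1.14) in non-cycling ones. In early ganglion-like cells it was -2.10 (-2.26 to -1.95), so that the DKO level was 23.3% of the control level. In late ganglion-like cells the ratio was -0.42 (-0.54 to -0.31), with the DKO level at 74.5% of the control level. *Pou4f2* was lower in DKO cells of all 4 classes, and the ratio was farthest from 0 in the early class.

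*Pou4f1*, which encodes another POU4 factor of ganglion cells and of sensory neurons, lies at chr14:104461676-104467999 (mm10). Its control levels were 10.1, 12.3, 70.2 and 178 CPM in the cycling neurogenic-like, non-cycling neurogenic-like, early and late ganglion-like classes, and its DKO levels were 12.5, 23.0, 60.3 and 183 CPM. In both libraries *Pou4f1* was highest in the late class, and the intervals of the 2 neurogenic classes overlapped in the control. The log2 ratio was 0.90 (0.45 to 1.37) in non-cycling neurogenic-like cells, where the counts were 59 and 137 UMIs. It was -0.22 (-0.50 to 0.07) in early and 0.04 (-0.07 to 0.15) in late ganglion-like cells, and both intervals spanned 0. A lowering of *Pou4f1* of the size seen for *Pou4f2* in the early class lay outside the interval.

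*Pou4f3* encodes the third POU4 factor, best known from hair cells of the inner ear, and lies on chromosome 18 from 42394539 to 42397249 (mm10). No UMI of it was counted in early ganglion-like cells of either library. In late ganglion-like cells it had 20 control and 129 DKO UMIs, or 3.32 (2.03 to 5.12) and 12.8 (10.6 to 15.2) CPM. The log2 ratio was 1.94 (1.26 to 2.70). *Pou4f3* was thus the POU4 member that was over 2-fold higher in DKO late ganglion-like cells, on few molecules.

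*Isl1*, whose LIM-homeodomain protein binds DNA together with Pou4f2, lies at chr13:116298281-116309689 (mm10). Its control levels were 76.2 CPM in cycling neurogenic-like, 458 CPM in non-cycling neurogenic-like, 1059 CPM in early ganglion-like and 1005 CPM in late ganglion-like cells. Its DKO levels in the same order were 34.4, 151, 407 and 989 CPM. In the control the early (1018 to 1101) and late (980 to 1031) levels overlapped, whereas the DKO level was lower in early than in late cells. The log2 ratio was -1.15 (-1.46 to -0.84), -1.60 (-1.71 to -1.48) and -1.38 (-1.46 to -1.29) in the first 3 classes and -0.02 (-0.07 to 0.02) in late ganglion-like cells. *Isl1* was thus at 38.5% of the control level in DKO early ganglion-like cells and at 98.4% in late ones.

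*Isl2*, a paralog of *Isl1*, lies at chr9:55538672-55546180 (mm10). It had 6 control and 16 DKO UMIs in neurogenic-like cells, 1 and 2 UMIs in early ganglion-like cells, and 29 and 80 UMIs in late ganglion-like cells. Its late levels were 4.81 (3.22 to 6.91) and 7.91 (6.27 to 9.84) CPM, with a log2 ratio of 0.72 (0.09 to 1.38). The 2 levels had overlapping intervals, and the depth does not resolve *Isl2* in the earlier classes. Photoreceptor-like cells had *Isl2* at 10.7 (3.46 to 24.9) and 15.9 (6.37 to 32.7) CPM on 5 and 7 UMIs, values above the late ganglion-like ones with intervals that overlapped them.

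*Ebf1* encodes a helix-loop-helix factor of differentiating neurons and lies at chr11:44617317-45008091 (mm10). Its control levels were 37.4, 141, 875 and 1146 CPM from cycling neurogenic-like to late ganglion-like cells, and its DKO levels were 27.5, 92.2, 623 and 1063 CPM. The order of the classes was the same in both libraries. The log2 ratio was -0.61 (-0.78 to -0.45) in non-cycling neurogenic-like, -0.49 (-0.57 to -0.41) in early ganglion-like and -0.11 (-0.15 to -0.06) in late ganglion-like cells. *Ebf1* was lower in DKO cells in each of these integrated classes, by less than 2-fold. Its ratio turned to 0.78 in non-cycling neurogenic-like cells when the libraries were merged without integration. One of the 2 clusters of that class then held 679 of the 781 DKO and 64 of the 333 control early ganglion-like cells. The other held 56 control ones, and the part of these cells in the ratio was not tested.

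*Ebf3*, its paralog at chr7:137193673-137314445 (mm10), had control levels of 40.1, 86.8, 312 and 522 CPM and DKO levels of 53.2, 134, 262 and 560 CPM in these classes. Its log2 ratio was 0.41 (0.11 to 0.70) in cycling and 0.62 (0.45 to 0.80) in non-cycling neurogenic-like cells, -0.25 (-0.38 to -0.12) in early and 0.10 (0.04 to 0.16) in late ganglion-like cells. *Ebf3* was therefore higher in DKO neurogenic-like cells, where its paralog *Ebf1* was lower with integration. Without integration both were higher in all neurogenic-like cells, with log2 ratios of 1.16 and 1.08 for *Ebf3* and *Ebf1*, and the early ratio of *Ebf3* turned to 0.15. The neurogenic-like cells of that clustering included most of the DKO early ganglion-like cells, so these ratios compare other cells than the integrated ones. Antisense genes overlap *Isl2* (*Gm17226*), *Ebf1* (*Gm12158*) and *Ebf3* (*Gm45278* and *Gm10578*) in the annotation and are counted as genes of their own, and how reads were divided between the strands is not given in the sources used here.

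**Figure D1:**
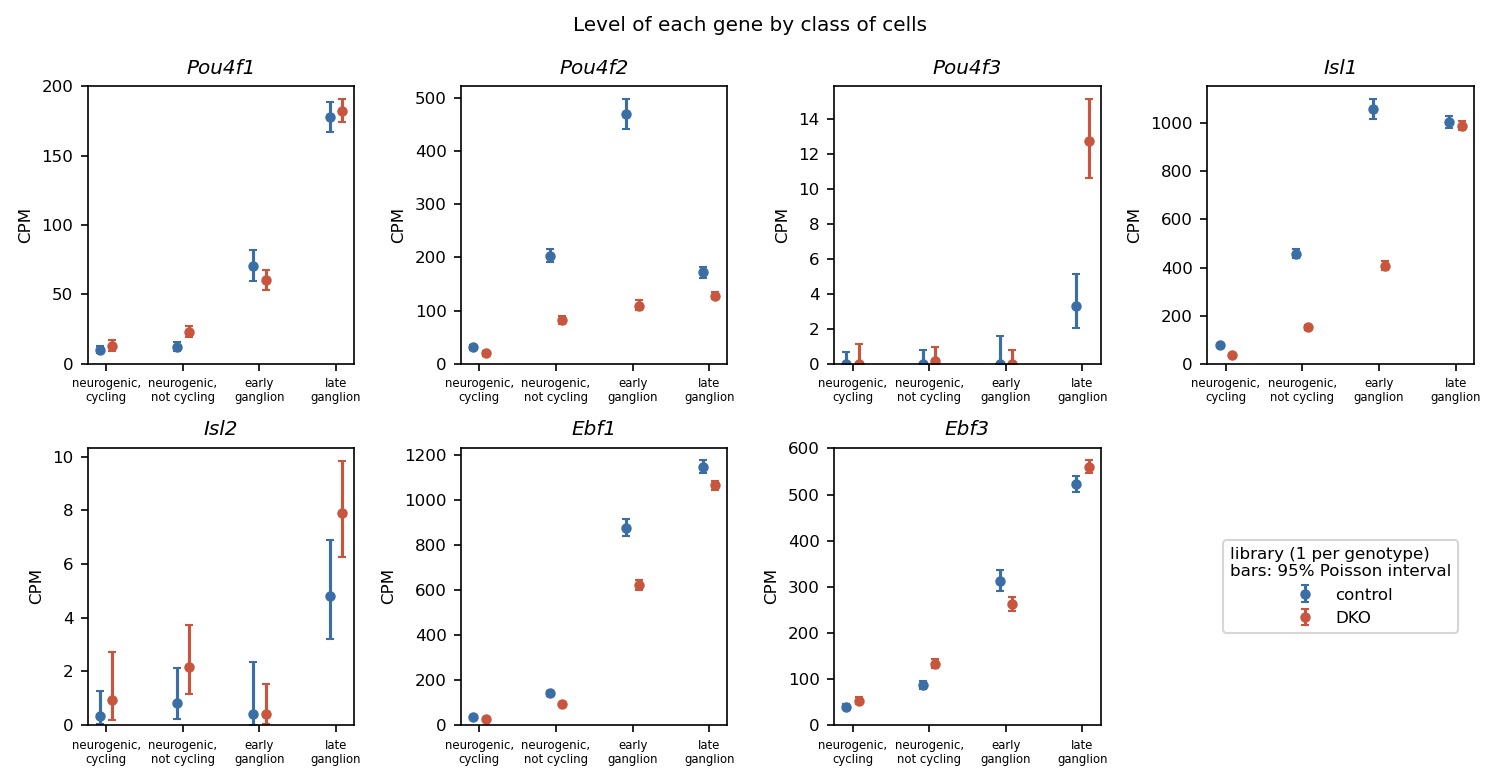
Level of each member in CPM (y axis, scale of its own in each panel) in 4 classes of cells (x axis) of the control (blue) and the DKO (red) library, with 95% Poisson intervals as bars. Pou4f2 peaks at 469 CPM in control early ganglion-like cells and stays at 128 CPM or below in all DKO classes, whereas Pou4f1 runs alike in both libraries from the early to the late class.

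**Figure D2:**
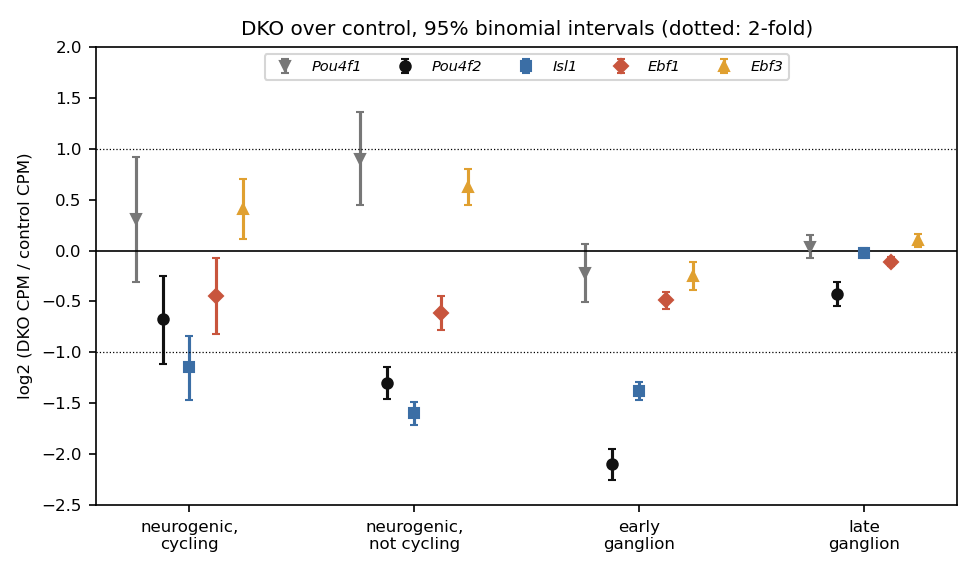
Log2 of DKO over control CPM (y axis) of the 5 members with enough UMIs, by class of cells (x axis), with 95% binomial intervals as bars and dotted lines at a fold of 2. Pou4f2 and Isl1 lie below the lower dotted line in early ganglion-like cells (-2.10 and -1.38), and all 5 members lie between the dotted lines in late ones.

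How far the members' ratios stand apart was read from all genes with at least 100 UMIs in either library. In neurogenic-like cells (both clusters together, 1400 control and 1703 DKO cells), 1 member (*Isl1*, -1.18) was over 2-fold lower, as were 1.06% of 8370 genes, and no member with this many UMIs was over 2-fold higher, against 2.21% of the genes. *Isl2* (1.61, interval 0.18 to 3.25) had 6 and 16 UMIs and lies outside these genes. In early ganglion-like cells 2 members (*Pou4f2* and *Isl1*) were over 2-fold lower, against 0.990% of 6063 genes, and none was over 2-fold higher, against 4.57%. In late ganglion-like cells none was over 2-fold lower, against 0.491% of 8145 genes, and 1 (*Pou4f3*) was over 2-fold higher, against 1.88%. With early and late cells together, *Pou4f2* (-1.06, interval -1.16 to -0.97) was lower by over 2-fold, against 0.575% of 9038 genes, and *Pou4f3* (1.87) was higher, against 2.68%.

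Intervals that lay wholly on 1 side of 0 were common, since they cover counting error only. In neurogenic-like cells 3 members (*Pou4f2*, *Isl1*, *Ebf1*) had such an interval below 0 and 3 (*Pou4f1*, *Isl2*, *Ebf3*) above it, while 22.0% of all genes had one below and 23.6% above. The early class had 4 members (*Pou4f2*, *Isl1*, *Ebf1*, *Ebf3*) below 0 and none above, against 15.6% and 23.5% of the genes. The late class had 2 members (*Pou4f2*, *Ebf1*) below and 3 (*Pou4f3*, *Isl2*, *Ebf3*) above, against 16.8% and 23.5%. For all ganglion-like cells these counts were 3 below (*Pou4f2*, *Isl1*, *Ebf1*) and 2 above (*Pou4f3*, *Isl2*), against 18.4% and 26.5%. The median log2 ratio over all genes was between 0.01 and 0.04 in the 4 groups. Members under 100 UMIs in both libraries were 2 of 7 in the neurogenic-like and early classes and 1 of 7 in the late class. *Isl2* was under it in each group, so that in each count above that holds *Isl2* it is a member for which the shares of all genes give no background.

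The early result depends on how the cells of the libraries were matched. When the libraries were merged without integration, 86.9% of the 781 DKO early ganglion-like cells fell in a neurogenic-like cluster of 76 control and 1664 DKO cells, and 86 of them fell in the cluster that held 63.1% of the 333 control early cells. That cluster was the early ganglion-like one without integration. Of its 503 control and 317 DKO cells, 293 and 224 were of the integrated late class, so it did not compare the same cells. For the early ganglion-like cells of that clustering the log2 ratio was -0.13 for *Pou4f2* and 0.21 for *Isl1*, and none of the members was over 2-fold lower. The integrated early class was itself unequal in other genes. Its 10 late ganglion markers (9 detected, *Thy1* at 0 in both) summed to 4428 CPM in the control and 7039 CPM in the DKO library, its 9 early markers, all detected, to 10364 and 11305 CPM, and its 10 neurogenic markers (10 and 9 detected, *Gm14226* at 0 in the DKO library) to 1452 and 1030 CPM. The part of these differences in the ratios of the members was not tested.

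Cells taken from the integrated classes were therefore also grouped by their late markers, a division made after the values had been seen. Which cells entered it thus still rests on the integration. All neurogenic-like non-cycling and ganglion-like cells that could be thinned to 2000 UMIs (1728 control and 3271 DKO) were placed in 6 ranges by their UMIs of the 10 late markers, from 0 to 21 or more. These are ranges and not cell types, and 930 control and 1362 DKO cells lay next to a border. The summed level of these markers itself differed between the libraries in the early class. Of these markers *Nrn1* was at 2.92 CPM in control and 62.5 CPM in DKO non-cycling neurogenic-like cells. In early ganglion-like cells *Nrn1* was at 33.6 and 190 CPM, *Sncg* at 158 and 174 CPM and *Nefm* at 1262 and 1031 CPM. A range therefore need not hold cells of the same stage in both libraries. *Pou4f2* was at 125, 249, 454, 522, 305 and 143 CPM in the control and at 60.9, 73.1, 132, 124, 118 and 121 CPM in the DKO library from the lowest to the highest range. The control level was highest in the fourth range, and the DKO levels lay between 118 and 132 CPM from the third range on. The log2 ratio was -2.07 (-2.32 to -1.83) in the range of 6 to 10 UMIs and -0.24 (-0.38 to -0.11) in the range of 21 or more.

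*Isl1* in the same ranges was at 351, 513, 834, 1110, 1201 and 957 CPM in the control and at 104, 132, 233, 342, 529 and 955 CPM in the DKO library. It was over 2-fold lower in DKO cells in each of the first 5 ranges and indistinguishable in the last, with an interval of the log2 ratio from -0.05 to 0.05. *Ebf1* was at 74.0, 181, 559, 821, 1067 and 1177 CPM in the control and at 41.7, 70.2, 204, 414, 653 and 1072 CPM in the DKO library. It was over 2-fold lower in DKO cells in the second and the third range, with log2 ratios of -1.36 (-1.62 to -1.11) and -1.46 (-1.66 to -1.26). *Ebf3* was higher in DKO cells in the first 2 ranges, at 99.7 against 55.1 CPM and at 127 against 104 CPM, and lower in the next 3, with a log2 ratio of -0.62 (-0.76 to -0.47) in the range of 11 to 20 UMIs. *Pou4f1* was at 116 CPM in the control and 64.4 CPM in the DKO library in the range of 11 to 20 UMIs, with a log2 ratio of -0.85 (-1.14 to -0.57). In the range of 1 to 2 UMIs it was higher in DKO cells, at 21.5 against 13.6 CPM (0.66, interval 0.01 to 1.33), and its intervals spanned 0 in the other 4 ranges. *Pou4f2*, *Isl1* and *Ebf1* were thus lower in DKO cells in each of the first 5 ranges. In the last range *Pou4f2* (-0.24, interval -0.38 to -0.11) and *Ebf1* (-0.13, interval -0.18 to -0.09) were still lower, by less. *Six3* was also lower in DKO cells before the last range, at 711 against 368 CPM in the range of 6 to 10 UMIs. It was at 743 against 829 CPM in the last range, and the part of *Six3* in these differences was not tested.

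**Figure D3:**
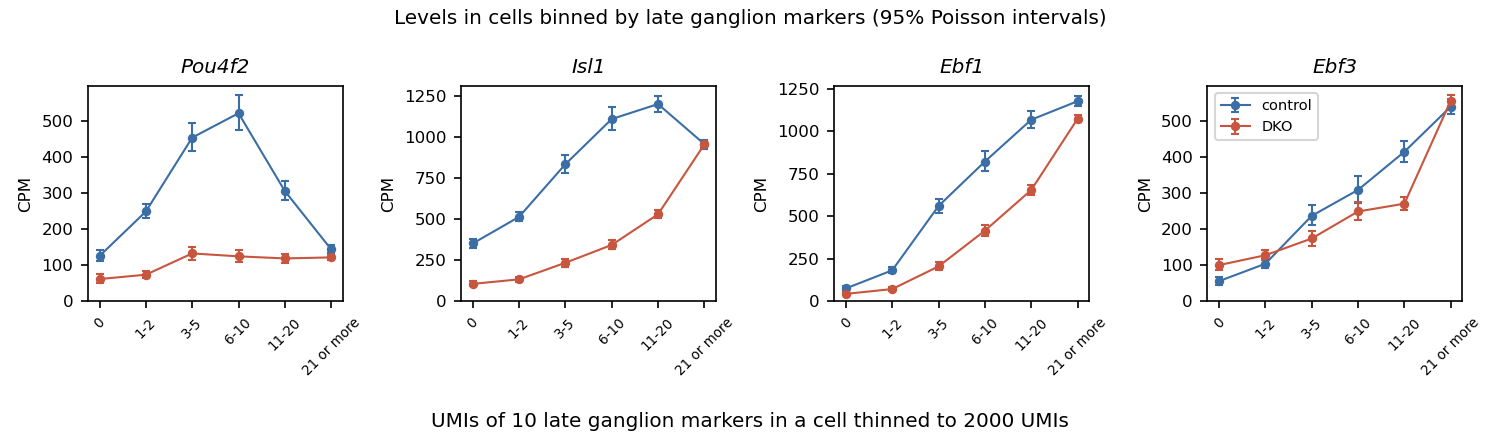
Level in CPM (y axis) of 4 members in cells placed by their UMIs of 10 late ganglion markers after thinning (x axis), for control (blue) and DKO (red) cells with 95% Poisson intervals. The control and DKO curves of Isl1 are apart up to 20 marker UMIs and meet at 957 and 955 CPM in the last range.

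The share of cells with a UMI was compared after each cell had been thinned to 2000 UMIs. In early ganglion-like cells *Pou4f2* was detected in 58.4% (Clopper-Pearson interval 52.8% to 63.7%) of 329 cells in the control and 14.5% (12.1% to 17.3%) of 763 cells in the DKO library, and *Isl1* in 82.4% (77.8% to 86.3%) and 39.4% (36.0% to 43.0%). *Ebf1* was detected in 80.2% and 60.6% of these cells, *Ebf3* in 46.8% and 40.2%, and *Pou4f1* in 13.7% and 11.3%. *Pou4f3* was detected in 0 of 329 and 0 of 763 cells, which allows shares of up to 0.912% and 0.393% of cells with a UMI. Without thinning *Pou4f2* was seen in 86.8% and 32.5% and *Isl1* in 95.2% and 58.9% of the early cells, at median depths of 6970 and 5838 UMIs. Both views show a lower share of DKO early cells with these 2 RNAs.

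In non-cycling neurogenic-like cells (749 control and 1196 DKO) the thinned shares were 26.6% and 12.1% for *Pou4f2*, 40.1% and 17.8% for *Isl1*, 19.2% and 13.2% for *Ebf1*, and 15.5% and 24.1% for *Ebf3*. The share of *Ebf3* was the higher one in DKO cells, as its level was. Among late ganglion-like cells (650 and 1312) the shares were 27.2% and 22.9% for *Pou4f2*, 82.9% and 81.1% for *Isl1*, 26.5% and 25.3% for *Pou4f1*, 87.5% and 86.7% for *Ebf1*, and 62.9% and 63.1% for *Ebf3*. In red blood-like cells, which should lack these genes, *Isl1* was detected in 0.47% of 1058 control and 0.75% of 530 DKO cells, at median depths of 8465 and 6403 UMIs. No other member was above 0.57% there.

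**Figure D4:**
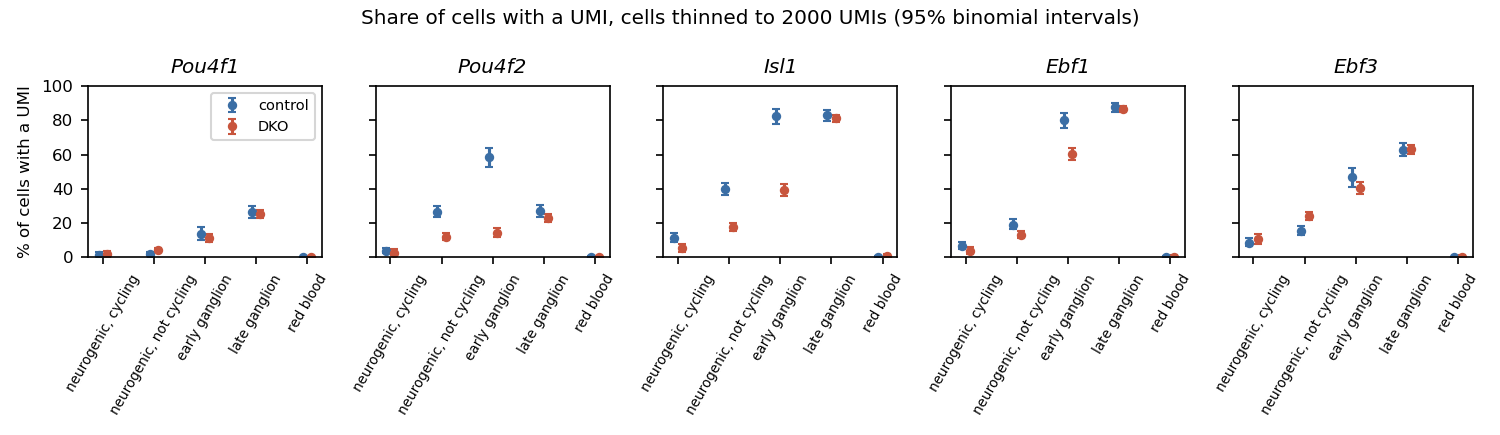
Share of cells with a UMI (y axis, %) of 5 members in 5 classes of cells (x axis) thinned to 2000 UMIs, for the control (blue) and the DKO (red) library with 95% binomial intervals. In early ganglion-like cells Pou4f2 is at 58.4% in the control and 14.5% in the DKO library and Isl1 at 82.4% and 39.4%, and in red blood-like cells all shares are near 0.

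The members were also followed within single cells after thinning. *Pou4f2* and *Isl1* were seen in the same cell in 50.8% of control and 9.7% of DKO early ganglion-like cells. Among early cells with a *Pou4f2* UMI, 87.0% (81.4% to 91.4%) in the control and 66.7% (57.1% to 75.3%) in the DKO library also had an *Isl1* UMI, and among cells without one 75.9% and 34.8% did. The pair was seen in 23.2% of control and 19.4% of DKO late ganglion-like cells. Cells with 3 or more of the 7 members made up 66.9% of control and 23.9% of DKO early cells, and 66.6% and 64.5% of late cells.

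Among cells with an *Ebf1* or *Ebf3* UMI, the share without *Pou4f2* and *Isl1* was larger in the DKO than in the control library before the late class. The part of the lower detection of *Pou4f2* and *Isl1* in these shares was not tested. Of the early ganglion-like cells with an *Ebf1* or *Ebf3* UMI, 7.61% (4.83% to 11.3%) of 289 in the control and 51.6% (47.4% to 55.8%) of 570 in the DKO library had no UMI of *Pou4f2* or *Isl1*. In non-cycling neurogenic-like cells the shares were 29.1% (23.3% to 35.6%) of 223 and 65.3% (60.4% to 70.0%) of 392 cells. In cycling ones they were 78.0% (68.1% to 86.0%) of 91 and 96.6% (88.1% to 99.6%) of 58 cells. Of all cycling neurogenic-like cells, however, 11.3% in the control and 12.8% in the DKO library had an *Ebf1* or *Ebf3* UMI without *Pou4f2* and *Isl1*. Late ganglion-like cells had shares of 13.1% and 14.7%, with overlapping intervals. *Atoh7*, the gene upstream of both factors, was at 2776 and 1614 CPM in the non-cycling neurogenic-like cells. Among those with an *Atoh7* UMI, *Isl1* was seen in 38.9% (35.3% to 42.6%) in the control and 22.0% (19.2% to 25.0%) in the DKO library, and *Pou4f2* in 26.4% and 15.9%, also without overlap of the intervals.

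The DKO ganglion-like cells were not uniform. When DKO cells were clustered alone, again without the members, the early class lay mainly in 2 subclusters, with 664 early cells in one of 771 cells and 76 early cells in one of 266 cells. The 664 early cells had *Pou4f2* at 77.6 CPM, *Isl1* at 343 CPM, *Ebf1* at 623 CPM and *Ebf3* at 261 CPM. The 76 early cells had *Pou4f2* at 421 CPM, *Isl1* at 1199 CPM, *Ebf1* at 800 CPM and *Ebf3* at 349 CPM. Against the 469 CPM of control early cells, the log2 ratio of *Pou4f2* had an interval from -2.78 to -2.41 in the 664 cells and from -0.40 to 0.08 in the 76 cells. *Six3* was at 430 CPM in the 664 cells and 919 CPM in the 76 cells, against 706 CPM in control early cells, and *Six6* was at 63.3, 37.1 and 134 CPM. The early DKO cells with control-like *Pou4f2* and *Isl1* were thus a minority that had more *Six3*, and whether *Six3* has a part in this was not tested. Control cells were not clustered alone, so whether control early cells divide in a similar way is not known.

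DKO late ganglion-like cells were mostly in 4 subclusters that each held more than 100 of them. The 135 late cells of the subcluster with the 76 early cells had *Pou4f2* at 327 CPM, *Isl1* at 1482 CPM and *Pou4f1* at 110 CPM, and no UMI of *Pou4f3*. Another subcluster held 596 late cells, with *Pou4f2* at 122 CPM, *Isl1* at 1101 CPM, *Pou4f1* at 233 CPM and *Ebf3* at 708 CPM. The next held 317 late cells, with *Pou4f2* at 93.8 CPM, *Isl1* at 643 CPM, *Pou4f1* at 128 CPM, *Ebf3* at 343 CPM and *Isl2* at 13.9 CPM. The last held 208 late cells, with *Pou4f2* at 114 CPM, *Isl1* at 1013 CPM, *Pou4f1* at 170 CPM and *Ebf3* at 556 CPM. *Pou4f3* was at 14.7 CPM in the 596 cells and at 11.9 CPM in the 208 cells, and had 38 UMIs in the 317 cells, against 3.32 CPM in control late cells. The near equality of *Isl1* between the libraries in the late class was therefore a mean over subclusters from 643 to 1482 CPM.

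A further cluster of 706 cells held DKO cells only and was left unnamed. Its leading genes were *Rspo3*, *Tbr1*, *Lhx9*, *Eomes* and *Slc17a6*, and its early ganglion markers, 9 of 9 detected, summed to 10233 CPM. It had *Pou4f2* at 5.77 (3.47 to 9.01) CPM and *Isl1* at 67.7 (59.1 to 77.2) CPM, with *Pou4f1* at 23.4 CPM, *Ebf1* at 255 CPM and *Ebf3* at 161 CPM, and no UMI of *Pou4f3* or *Isl2*. *Six3* was at 126 CPM in it. The EBF genes were thus present in this cluster with little *Pou4f2* or *Isl1*. Its 6 telencephalon, thalamic eminence or Cajal-Retzius markers (5 detected, *Trp73* at 0) summed to 449 CPM, against 204 CPM in DKO and 87.6 CPM in control early ganglion-like cells, and the part of such cells in the counts was not tested.

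**Figure D5:**
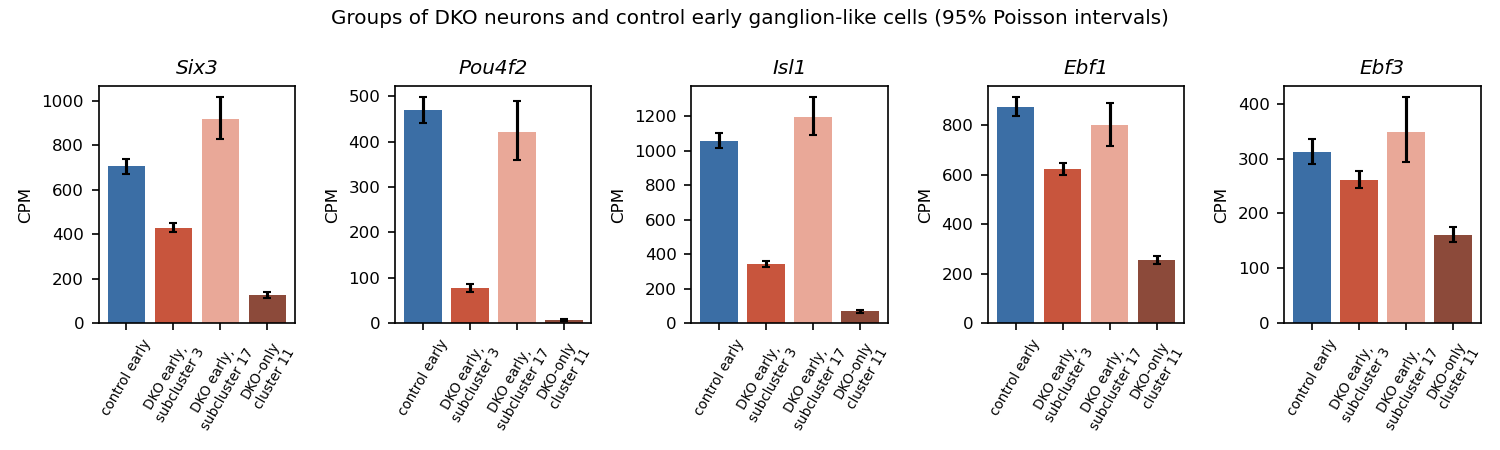
Level in CPM (y axis, from 0) of Six3 and 4 members in control early ganglion-like cells, in the DKO early cells of 2 subclusters and in the cluster of DKO cells only (x axis), with 95% Poisson intervals as bars. Subcluster 17 has 421 CPM of Pou4f2, near the control level of 469 CPM, and the DKO-only cluster has 5.77 CPM.

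Other cells of the eyecup held the members at varied levels. Naive-like progenitors had *Pou4f2* at 2.27 CPM in the control and 1.42 CPM in the DKO library and *Isl1* at 7.78 and 5.71 CPM. Photoreceptor-like cells had *Ebf1* at 205 (166 to 250) and 183 (146 to 228) CPM, above the 141 CPM of non-cycling neurogenic-like control cells, and *Isl1* at 12.8 and 45.3 CPM on 6 and 20 UMIs. Amacrine- or horizontal-like cells had *Isl1* at 47.0 and 15.5 CPM, *Ebf1* at 58.1 and 86.0 CPM, and 13 and 0 UMIs of *Pou4f2*. With the 0 set to a floor of 3 UMIs, *Pou4f2* was 5.02-fold lower in the DKO library. Its intervals were 9.57 to 30.7 CPM in the control and 0 to 4.41 CPM in the DKO library, which allow a smaller fold. Cranial sensory neurons also use POU4 and ISL factors, so their markers were examined in the ganglion-like classes. *Tlx3*, one of these markers, had at most 4 UMIs, and the 6 measured markers summed to 75.7 and 119 CPM in the early and 157 and 184 CPM in the late class. Red blood markers, 8 of 8 detected, summed to 11254 and 6183 CPM in the early class, and leaving hemoglobin and mitochondrial genes out of the totals moved none of 36 ratios of the members beyond its interval.

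The genes whose levels most resembled each member were sought over 38 points, each a cluster with at least 50 cells in a library, among 12491 genes. The points share libraries and depth, and the correlations are descriptions. *Pou4f2* was most like *Isl1* (Pearson r of log2 levels 0.95), *Irx2* (0.94) and *Ebf3* (0.87), and *Isl1* was most like *Irx2* (0.96), *Pou4f2* (0.95) and *Ebf3* (0.94). *Ebf1* was most like *Ebf3* (0.97) and the neuronal stathmins *Stmn2* (0.97) and *Stmn3* (0.96), and *Ebf3* was most like *Ebf1* (0.97), *Igfbpl1* (0.96) and *Elavl4* (0.95). *Pou4f1* was most like *Tmem178b* (0.94), *Elavl4* (0.94) and *Nrxn2* (0.93), and its r with *Pou4f2* was 0.75. *Pou4f3* and *Isl2* had too few UMIs for this.

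Genes that act upstream of the members were described from a list of 7. In all ganglion-like cells 6 of them had at least 100 UMIs, with 2 over 2-fold higher in DKO cells (2.68% over all genes), none over 2-fold lower (0.575%) and a median log2 ratio of 0.00. The proneural gene *Neurog2* was at 6.45 CPM in the control and 55.8 CPM in the DKO library (log2 ratio 3.11), and *Neurod1* was at 81.8 and 172 CPM (1.07). *Atoh7* was at 488 and 275 CPM (-0.83) and the eye field gene *Pax6* at 656 and 588 CPM (-0.16). In neurogenic-like cells *Neurog2* was at 118 and 319 CPM and *Atoh7* at 3264 and 2099 CPM. *Atoh7* was thus lower and *Neurog2* higher in DKO cells of the same class.

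Of 15 other ganglion cell genes, among them known targets of Pou4f2 or Isl1, 8 had at least 100 UMIs in early ganglion-like cells. Of these 4 were over 2-fold lower and none over 2-fold higher in DKO cells, against 0.990% and 4.57% of all genes, and the median log2 ratio was -0.76 against 0.04 over all genes. These values rest on the integrated early class, and were not computed for the early class of the clustering without integration. *Irx2*, the homeobox gene most like *Isl1* in its levels, was at 183 and 34.8 CPM in the early class (-2.40) and at 144 and 106 CPM in the late class (-0.44). *Igfbp5*, a binding protein of insulin-like growth factors, was at 113 and 11.3 CPM in the early class (-3.32). In all ganglion-like cells *Igfbp5* was at 86.9 and 21.5 CPM (-2.01), *Mstn*, a secreted factor, at 8.83 and 26.5 CPM (1.59) and the morphogen gene *Shh* at 3.82 and 9.65 CPM (1.34). *Eomes*, a T-box gene of ganglion cell subtypes, had 0 control and 155 DKO UMIs there. That is 29.2-fold higher when the 0 is set to a floor of 3 UMIs. *Eomes* was also a leading gene of the DKO-only cluster, at 214 CPM. In non-cycling neurogenic-like cells it had 0 control and 549 DKO UMIs, the latter at 92.1 CPM. The part of cells like those of the DKO-only cluster in this ratio was not tested.

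LIM-homeodomain and EBF proteins act with cofactors, and 10 of 12 listed had at least 100 UMIs in ganglion-like cells, 1 over 2-fold lower and 1 over 2-fold higher, with a median log2 ratio of 0.00. *Lmo1*, a LIM-only gene, was at 179 and 77.1 CPM (-1.22) and its relative *Lmo2* at 13.1 and 43.2 CPM (1.72). *Ssbp2* and *Ssbp4*, whose proteins bind the LIM cofactor Ldb1, were at 57.4 and 35.8 CPM (-0.68) and at 54.6 and 78.0 CPM (0.52). Of 17 paralogs, 13 had at least 100 UMIs, with 4 over 2-fold higher and none over 2-fold lower, against 2.68% and 0.575% of all genes. The 4 were the LIM-homeodomain genes *Lhx1* with 1 and 153 UMIs (log2 ratio 6.43, interval 3.93 to 11.75), *Lhx5* at 0.48 and 14.0 CPM (4.88), *Lhx9* at 0.95 and 20.2 CPM (4.40) and *Lhx2* at 18.3 and 80.0 CPM (2.13). *Lhx9* was also a leading gene of the DKO-only cluster, at 264 CPM, and the part of such cells in these ratios was not tested. In early ganglion-like cells *Lhx2* was at 23.4 and 162 CPM (2.79), beside *Isl1* at 1059 and 407 CPM.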

How the data were processed

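Eyecups from 1 control and 1 DKO embryo were profiled with the 10x Single Cell 3' kit (version 3). Per the labels, Cell Ranger 3.1.0 and mm10 were used, and the authors deposited UMI counts per gene and cell without normalization. The limits of the study were applied, so that cells needed over 200 but fewer than 6000 genes and less than 20% of their UMIs from mitochondrial genes. The control and DKO libraries held 85589515 and 85173276 UMIs.

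Libraries were integrated with Seurat 5.3.0 anchors (R 4.3.3, up to 2000 variable features, 20 dimensions) and clustered at resolution 0.5. DKO cells were also clustered alone at resolution 1. The members, *Six3*, *Six6*, the listed pathway genes, hemoglobin genes and sex-linked genes did not serve as features. Clusters were named from marker lists where at least 75% of a list's markers exceeded 1.5 times their level in all other cells. Ganglion-like clusters with at least 40% of the neurogenic markers raised were called early. Clusters with over 50% doublets, few UMIs (a median far below the library's) or hardly any control cells stayed unnamed. These limits were set after the clusters had been seen, and the names are rebuilt and need not match the study's clusters. Doublets were scored with Scrublet (scanpy 1.11.5) at a threshold of 0.225 in both libraries, since the automatic threshold of the control was 0.635. This called 300 control and 329 DKO cells, which were kept. *Drgx* of the sensory neuron list was not among the genes of the tables.

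Levels are summed UMIs per 1000000 UMIs of a class (CPM) with exact Poisson intervals, the interval of a ratio comes from the exact binomial distribution of its UMIs over both libraries, and shares have Clopper-Pearson intervals after thinning cells to 2000 UMIs. Ratios against 0 UMIs were set against a floor of 3 UMIs over the group. Python 3.11.15, numpy 2.4.6, scipy 1.17.1, pandas 2.3.3 and matplotlib 3.10.9 were used, and the scripts were tested on simulated data. With 1 library per genotype there was no test and no p-value. Non-member genes named from the lists were the 4 with the largest absolute log2 ratio in all ganglion-like cells that had 100 UMIs or more, and for likeness the 3 with the highest Pearson correlation of log2(CPM + 1) among genes with at least 200 UMIs. The values of *Irx2* in the pathway list and of *Lhx2* in early cells were added after they had been seen. The members and lists were chosen with earlier results of these data known. Alternatives were other features, resolutions, libraries merged without integration, doublets left out, at least 1000 genes per cell, other totals, thinning, means over cells, 1 CPM added, and, after values were seen, a different OpenBLAS kernel and 3 unnamed clusters added. Gene positions are those of GENCODE vM21 (mm10) and promoters those of RefSeq. The study's bulk RNA-seq and in situ hybridization were not analysed here. The value of 1 marker gene is not reported here.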

Additional observations from a re-analysis of the deposited data

Results flagged for a closer look

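*Ebf3* went in opposite directions in successive classes of the lineage. Its log2 ratio of DKO over control was 0.78 (0.63 to 0.93) in neurogenic-like cells, -0.25 (-0.38 to -0.12) in early ganglion-like cells and 0.10 (0.04 to 0.16) in late ganglion-like cells. The corresponding levels were 61.5 and 106 CPM, 312 and 262 CPM, and 522 and 560 CPM in the control and the DKO library. The difference between the classes was not tested, since each genotype had 1 library. In the clustering without integration the early ratio was 0.15. *Ebf1* had ratios below 0 in the same 3 classes, at -0.28, -0.49 and -0.11, but without integration its ratio in neurogenic-like cells was 1.08. The neurogenic-like cells of that clustering included 679 of the 781 DKO early ganglion-like cells, and their part in this ratio was not tested.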

How the results depend on the processing

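No paired analysis was possible because there was 1 library for each genotype. Leaving out doublets, requiring 1000 genes per cell, another kernel, totals without hemoglobin and mitochondrial genes and adding 1 CPM each kept all 36 ratios of the members within the interval of the reported value. Thinning moved 3 of 36, means over cells 1, resolution 1 moved 3, all genes as features 6 and resolution 0.3 moved 12. Adding the cluster of few UMIs moved 0 of 7 ratios in ganglion-like cells, adding that of mostly doublets 1 of 7. Adding the cluster of DKO-only neurons moved 10 of the 12 ratios compared and turned 0 around. Merging the libraries without integration moved 16 and turned 4 around, namely *Ebf1* in non-cycling neurogenic-like (0.78) and in all neurogenic-like cells (1.08) and *Isl1* (0.21) and *Ebf3* (0.15) in early ganglion-like cells. By construction this setting compared other cells in the early class, most of which were late ganglion-like in the integrated clustering in both libraries. The neurogenic-like class of this setting held 679 of the 781 DKO early ganglion-like cells of the integrated clustering. Over 12 alternatives the early ratio of *Pou4f2* ranged from -2.81 to -0.13.

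Counts of members also changed. Shares of all genes are given for the main clustering only, so the counts below have no background, and they can include *Isl2*. Merged without integration, 3 members were over 2-fold higher in neurogenic-like cells, 1 was lower, 2 higher and 0 over 2-fold lower in early cells, and 4 were higher, 0 over 2-fold lower and 2 over 2-fold higher in all ganglion-like cells. With all genes as features 1 member was over 2-fold lower in early cells and 1 lower in late cells. At resolution 0.3, and again with the DKO-only neurons added, 5 members were lower and 1 higher in all ganglion-like cells. At resolution 1, with other totals, with thinning and with 1 CPM added, 1 was higher there. With thinning 2 members were over 2-fold higher in neurogenic-like cells and 1 lower in late cells, and with 1 CPM added 0 were over 2-fold higher in neurogenic-like cells. The cause was not tested. Shares of cells with a UMI depend on the depth, and 34 of 42 moved without thinning and 32 of 42 at 4000 UMIs. The planned comparison of DKO cells from *Six3*-low subclusters gave no value, since 47 of 1703 neurogenic-like, 30 of 781 early and 2 of 1341 late DKO cells qualified, under the 50 cells required.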
